A study of Drosophila melanogaster with 24 samples.

Results

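The comparison described here was the step within the light phase from ZT4 to ZT8, where ZT (Zeitgeber time) is the number of hours after lights on. Its members were the 4 libraries at ZT8, 2 from young and 2 from old flies, set against the 4 libraries at ZT4, so that 8 of the 24 libraries of the series entered. All were made from heads of mated w[1118] females kept under 12 h of light and 12 h of dark. Young flies were 5 days old and old flies 55 days old, with 2 libraries per age and time. Every group thus carries a mutant allele of white, an eye colour gene, whose transcript was at or below 0.224 scaled FPKM in each of the 8 libraries. Each library came from the pooled heads of a group of flies.

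In the fly clock, the CLK and CYC proteins form a pair that switches on per, tim, vri, Pdp1 and cwo during the day. PER and TIM later return to the nucleus and block that pair, VRI represses Clk and PDP1 activates it, and CWO acts on the same promoter elements as CLK and CYC. Photoreceptors of the compound eye hold both a clock and the light-sensing cascade of rhodopsin, G protein, phospholipase C and the TRP and TRPL channels. Both systems lie in the head, and the samples at ZT4 and ZT8 fall in the first and second part of the day.

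Levels are deposited FPKM, a fragment count normalised for transcript length and library size, after scaling each library by the median of its ratios to a common reference, so that the middle gene does not move. Differences are on the scale of log2(scaled FPKM + 1), which understates the change of low genes, and are ZT8 minus ZT4. Before scaling, the median step of all tested genes was -0.07 on the log2 scale, and after it the median was 0.00. Replicate libraries correlated at r = 0.973 to 0.981 across genes. The smallest steps of the values of single-transcript genes put 1 FPKM of a transcript of 2000 bases at 34.6 to 42.6 fragments. Markers of neurons, glia and photoreceptors had summed levels of 792 to 1579.9, 1939.7 to 2449 and 12494 to 14615 scaled FPKM, and 6 germline markers together 1.04 to 2.47. Fat body markers summed to 17974 and 13646 at young ZT4 and 23246 and 19444 at young ZT8. At old ZT4 they summed to 11003 and 10642, and at old ZT8 to 9658 and 9559. Their part in the results was not tested. In whole heads, fewer cells of a type and less RNA per cell cannot be told apart. Each group holds 2 libraries, so P values of the step at each age and of its difference between ages measure the spread between pairs of libraries. With age as a block, a difference of the step between ages also counts as spread. For tim the SE was 0.18 with age as a block and 0.06 within each age.

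With age as a block, 330 of 9513 tested genes (3.47%) differed between ZT8 and ZT4 at a limma adjusted P of at most 0.05, 150 higher (1.58%) and 180 lower (1.89%) at ZT8. Within each age, both ZT8 libraries lay on the called side of both ZT4 libraries for all 330 genes, against 10.8% of all tested genes upward and 9.64% downward, 20.5% together. In 5.4% of all genes the ages were separated in opposite directions. Over both ages together, the 4 ZT8 values lay wholly above the 4 ZT4 values for 73 of the 150 and wholly below for 81 of the 180, where 2.87% and 2.37% of all genes were so separated, 5.23% together. The same libraries made the calls, so neither separation is independent support for them. At an unadjusted P of at most 0.05 stood 22.8% of all genes. Most steps were moderate, with a median of 0.37 on the log2 scale among genes that rose and 0.35 among those that fell, and 50 of the 330 passed a change of 1.5-fold. On the deposited values without scaling, 694 genes were called, 98 higher and 596 lower.

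The number called changed with each single library left out. All 330 genes kept the sign of their step in each of the 8 fits without 1 library. Their separation within each age makes that certain, so it is no further support. Without the first-cycle library of young ZT8 477 genes were called, and without its second-cycle library 13. The counts without any 1 of the other 6 libraries ran from 15 to 49. Called in each of these 8 fits were 12 genes, per, vri, cwo, gol, Dyrk2, CG14186, CG16978, inaD, t, Ank2, CG44195 and Cpr72Ec. When the spread was estimated from all 24 libraries, 69 genes were called, 54 of them among the 330.

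Genes that the CLK and CYC pair activates rose, by very different amounts. The level of tim, the light-sensitive partner of per, was 17.4 and 18.3 at ZT4 and 99.8 and 92.3 at ZT8 in young flies. In old flies it had 46.1 and 48.3 at ZT4 and 125 and 127 at ZT8. All ZT8 values exceeded all ZT4 values, and at both times the old values were above the young (log2 difference 1.88, SE 0.18, limma adjusted P = 0.00593). Without the second-cycle library of young ZT8 the adjusted P was 0.051. The transcript of per stood at 1.69 and 1.38 at ZT4 and 5.5 and 6.18 at ZT8 in young flies. The old libraries gave 5.98 and 6.09 at ZT4 and 14.01 and 12.7 at ZT8. It rose at both ages (log2 difference 1.23, SE 0.10, limma adjusted P = 0.00312), and the young ZT8 values, 5.50 and 6.18, spanned the old ZT4 values, 5.98 and 6.09. The levels of vri, a repressor of Clk, were 23.5 and 24.1 at ZT4 and 73.5 and 78.5 at ZT8 in young flies. Among old flies the level was 49.8 and 53.99 at ZT4 and 104 and 109.8 at ZT8 (log2 difference 1.33, SE 0.12, limma adjusted P = 0.0042). The rise of vri separated all ZT8 from all ZT4 libraries.

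Smaller rises were found for the remaining direct targets of the list. The levels of cwo were 10.6 and 10.5 at ZT4 and 15.2 and 16.2 at ZT8 in young flies. Its values in old flies were 11.9 and 11.5 at ZT4 and 19.03 and 18.1 at ZT8 (log2 difference 0.58, SE 0.04, limma adjusted P = 0.00312), with a step of 0.53 in young and 0.62 in old. Pdp1, whose product activates Clk, was more abundant, at 263 and 256 at ZT4 and 338 and 317 at ZT8 in young flies. Old heads had 243 and 254 at ZT4 and 288 and 319 at ZT8 (log2 difference 0.31, SE 0.05, limma adjusted P = 0.0286). For both genes the ZT8 libraries were above the ZT4 libraries of either age.

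The activators and the light receptor went the other way. Clk was at 45.7 and 40.1 at ZT4 and 31.6 and 35.02 at ZT8 in young flies. At the older age it stood at 29.9 and 32.5 at ZT4 and 23.4 and 24.1 at ZT8, and fell (log2 difference -0.37, SE 0.06, limma adjusted P = 0.0286) with steps of -0.35 in young and -0.38 in old. The level of cry, the blue-light receptor that resets the clock, was 71.9 and 70.2 at ZT4 and 65.5 and 59.99 at ZT8 in young flies. The level in old flies was 64.9 and 65 at ZT4 and 51.3 and 51.7 at ZT8 (log2 difference -0.25, SE 0.05, limma adjusted P = 0.04). The values of cyc, the partner of Clk, were 9.22 and 8.22 at ZT4 and 7.24 and 6.81 at ZT8 in young flies. Old flies had 8.84 and 9.24 at ZT4 and 8.1 and 8.01 at ZT8, a difference that missed the threshold (log2 difference -0.21, SE 0.06, limma adjusted P = 0.0838). Of the 8 core clock genes, 5 rose and 2 fell, with a median step of 0.44 against 0.00 over all tested genes. Among all tested genes, 1.58% were called higher and 1.89% lower. With the spread of all 24 libraries, tim, vri and per stayed called, and the adjusted P of limma was 0.0617 for cwo, 0.11 for Pdp1, 0.245 for cry and 0.361 for Clk. With the length curve described further on removed, the adjusted P of cry was 0.0501.

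**Figure D1:**
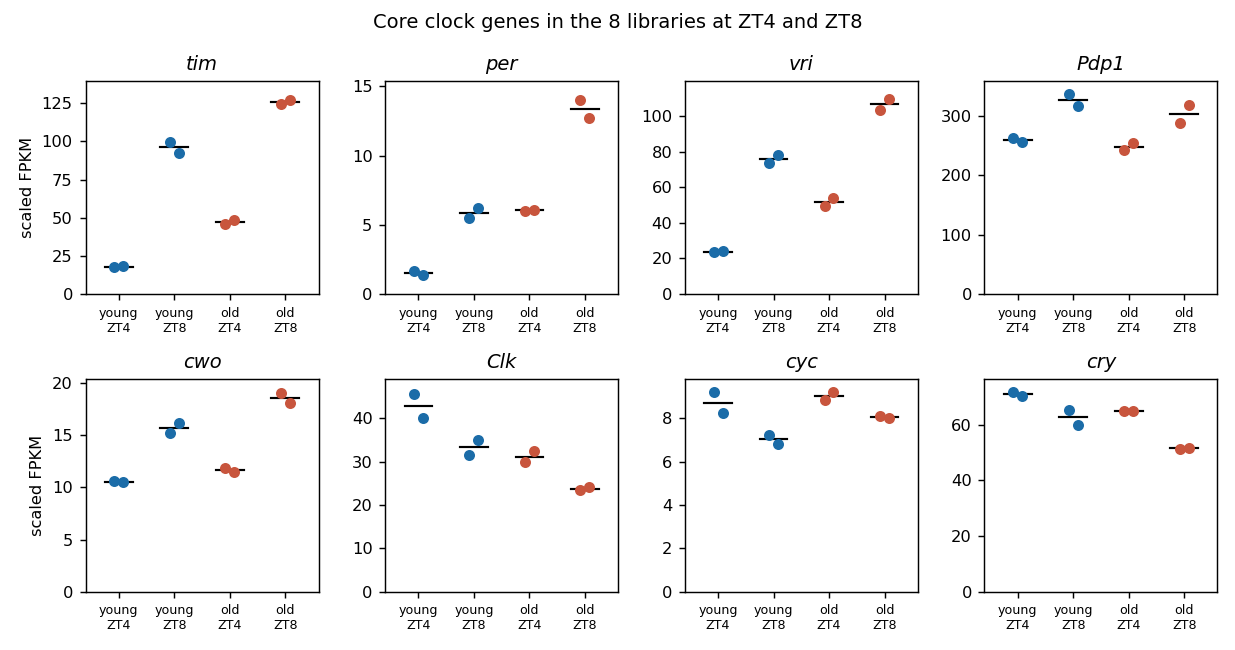
Scaled FPKM (vertical axis, from 0) of the 8 core clock genes in each library, by age and time of day. Points are the 2 libraries of a group and short lines their mean. For tim, per, vri, Pdp1 and cwo both ZT8 points lie above both ZT4 points at each age, and for Clk, cyc and cry below, with tim at 17.4 and 18.3 at young ZT4 against 46.1 and 48.3 at old ZT4.

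Among 12 kinases, phosphatases and degradation factors of the clock, 2 rose and 1 fell, with a median step of -0.03. Over all tested genes, 1.58% were called higher and 1.89% lower. The rises were nmo, a kinase, at 0.38 (limma adjusted P = 0.0359) and tws, a regulatory subunit of protein phosphatase 2A, at 0.23 (limma adjusted P = 0.0468). Another regulatory subunit of that phosphatase, wdb, fell by 0.21 on the log2 scale (limma adjusted P = 0.0407). The steps of these 3 genes were small, and none was called with the spread of all 24 libraries.

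Of 12 clock output genes, 2 rose and 3 fell, with a median step of -0.06. Over all tested genes, 1.58% were called higher and 1.89% lower. With the spread of all 24 libraries, 2 rises and 1 fall of the list were called. Usp8, a deubiquitinating enzyme, had 18.4 and 17.8 at ZT4 and 77.9 and 76.8 at ZT8 in young flies. In old heads it was at 37.9 and 34.2 at ZT4 and 69.7 and 67.2 at ZT8 (log2 difference 1.47, SE 0.21, limma adjusted P = 0.0278). The rise was present at both ages, with all ZT8 above all ZT4 values. Slob, which encodes a protein that binds the Slowpoke potassium channel, was at 62.1 and 60.3 at ZT4 and 103 and 100.05 at ZT8 in young flies. The values at the older age were 73.2 and 71.2 at ZT4 and 87.4 and 85.5 at ZT8 (log2 difference 0.49, SE 0.09, limma adjusted P = 0.0372). Its young step of 0.72 was larger than its old step of 0.26, a difference that did not pass adjustment (limma adjusted P = 0.146). The genes that fell were takeout (to), whose product is a secreted carrier-like protein linked to feeding, at -0.49 (limma adjusted P = 0.0486), the cytochrome P450 gene Cyp6a21 at -0.52 (limma adjusted P = 0.0438) and Ugt35b, a UDP-glycosyltransferase, at -0.63 (limma adjusted P = 0.0181).

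Outside these lists, gol and Dyrk2 were among the 12 genes called in each fit without 1 library. The levels of gol, which encodes a RING finger ubiquitin ligase, were 43.5 and 44.2 at ZT4 and 112 and 109 at ZT8 in young flies. In old flies it had 47.5 and 46.7 at ZT4 and 85.7 and 94.5 at ZT8 (log2 difference 1.12, SE 0.08, limma adjusted P = 0.0031). Dyrk2, a protein kinase, was at 29.97 and 28.3 at ZT4 and 46.7 and 46.2 at ZT8 in young flies. The old libraries gave 22.6 and 22.1 at ZT4 and 33.5 and 37.1 at ZT8 (log2 difference 0.65, SE 0.04, limma adjusted P = 0.0031), with steps of 0.66 in young and 0.64 in old (old minus young -0.02, SE 0.09, limma adjusted P = 0.975). Sodh-1, a sorbitol dehydrogenase, was at 18.03 and 16.001 at ZT4 and 30.4 and 38.7 at ZT8 in young flies. Among old flies the level was 17.9 and 13.5 at ZT4 and 23.6 and 21.7 at ZT8 (log2 difference 0.74, SE 0.13, limma adjusted P = 0.0354). The uncharacterised CG34166 had 22.1 and 18.3 at ZT4 and 48.7 and 40.3 at ZT8 in young flies. Its values in old flies were 15.7 and 16.8 at ZT4 and 23.8 and 19.5 at ZT8 (log2 difference 0.74, SE 0.16, limma adjusted P = 0.0498). Its steps were 1.10 in young and 0.39 in old (old minus young -0.71, SE 0.20, limma adjusted P = 0.466), and its call was lost in 6 of the other fits that kept all 8 libraries.

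Genes known to respond to neuronal activity had positive steps, most of them small. All 9 tested members of that list had a positive step, with a median of 0.19 (0.08 in young and 0.26 in old), and 2 were called. Positive steps were found for 4744 of all 9513 tested genes, and 1.58% were called higher. On the deposited scale 6 of the 9 were positive, beside 2995 of the 9513. Hr38, a nuclear receptor of the NR4A family, was at 7.45 and 6.53 at ZT4 and 9.49 and 9.31 at ZT8 in young flies. Old heads had 8.35 and 9.5 at ZT4 and 15.7 and 17.1 at ZT8 (log2 difference 0.60, SE 0.10, limma adjusted P = 0.0294). Its level was highest at ZT8 at both ages among the 6 times of day, with means of 9.4 in young and 16.4 in old flies against 2.81 and 3.11 at ZT20. CG14186, the other called member, had 39.5 and 41.2 at ZT4 and 59.7 and 58.7 at ZT8 in young flies. At the older age it stood at 38.8 and 37.95 at ZT4 and 51.1 and 56.1 at ZT8 (log2 difference 0.51, SE 0.04, limma adjusted P = 0.00414).

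Most of the called genes of the light-sensing cascade fell. Of 32 tested members, 7 fell and 2 rose, with a median step of -0.04. Among all tested genes, 1.89% were called lower and 1.58% higher. The largest fall was that of inaD, the scaffold that holds the cascade together, at 34.4 and 34.5 at ZT4 and 20.8 and 17.1 at ZT8 in young flies. The level in old flies was 38.9 and 42.8 at ZT4 and 21.4 and 19.3 at ZT8 (log2 difference -0.90, SE 0.07, limma adjusted P = 0.00312). No ZT8 library reached a ZT4 library. Gbeta76C, the eye-specific beta subunit of the G protein, was at 184 and 184 at ZT4 and 142 and 125 at ZT8 in young flies. Old flies had 154 and 154 at ZT4 and 98.5 and 95.8 at ZT8 (log2 difference -0.56, SE 0.06, limma adjusted P = 0.0103). The eye-specific protein kinase C, inaC, was at 414 and 418 at ZT4 and 328 and 337 at ZT8 in young flies. In old heads it was at 300.04 and 298 at ZT4 and 238 and 237 at ZT8 (log2 difference -0.33, SE 0.04, limma adjusted P = 0.0118). The fall of inaC left its young ZT8 values above its old ZT4 values. All 3 genes were also called with the spread of all 24 libraries.

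The other falls of the list were those of rtp, which encodes the photoreceptor protein retinophilin, at -0.43 (limma adjusted P = 0.0278), of ninaA, a chaperone of rhodopsin, at -0.24 (limma adjusted P = 0.0278), of CdsA, an enzyme that regenerates the phospholipid substrate of the cascade, at -0.23 (limma adjusted P = 0.0485) and of Pdh, a retinal pigment cell dehydrogenase, at -0.59 (limma adjusted P = 0.0286). Pdh had 672 and 651 at ZT4 and 489.6 and 527 at ZT8 in young flies. The values at the older age were 582 and 570.3 at ZT4 and 356 and 305 at ZT8, a step of -0.38 in young and -0.80 in old. The channel gene trpl rose instead, from 854 and 893 to 1014 and 1069 in young and from 425 and 415 to 543 and 556 in old flies (log2 difference 0.32, SE 0.05, limma adjusted P = 0.0278). Rh4, the ultraviolet rhodopsin of a subset of R7 cells, had 316 and 313 at ZT4 and 356 and 374 at ZT8 in young flies. In old flies it had 495 and 527 at ZT4 and 634 and 699.9 at ZT8 (log2 difference 0.30, SE 0.06, limma adjusted P = 0.0407). Both were separated within each age, while the old ZT8 values of trpl lay below its young ZT4 values.

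The tan gene (t), whose hydrolase frees histamine, the photoreceptor transmitter, from its conjugate, was at 96.9 and 111 at ZT4 and 68.1 and 67.3 at ZT8 in young flies. The old libraries gave 93.5 and 97.7 at ZT4 and 56.5 and 54.1 at ZT8 (log2 difference -0.69, SE 0.06, limma adjusted P = 0.00404). It continued a decline over the day, with means of 169.6 at ZT0 and 39.5 at ZT12 in young flies and of 151 and 39.2 in old flies. The calcium-binding photoreceptor protein gene Cpn, named here after its values were seen, fell too at -0.44 (limma adjusted P = 0.0278).

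**Figure D2:**
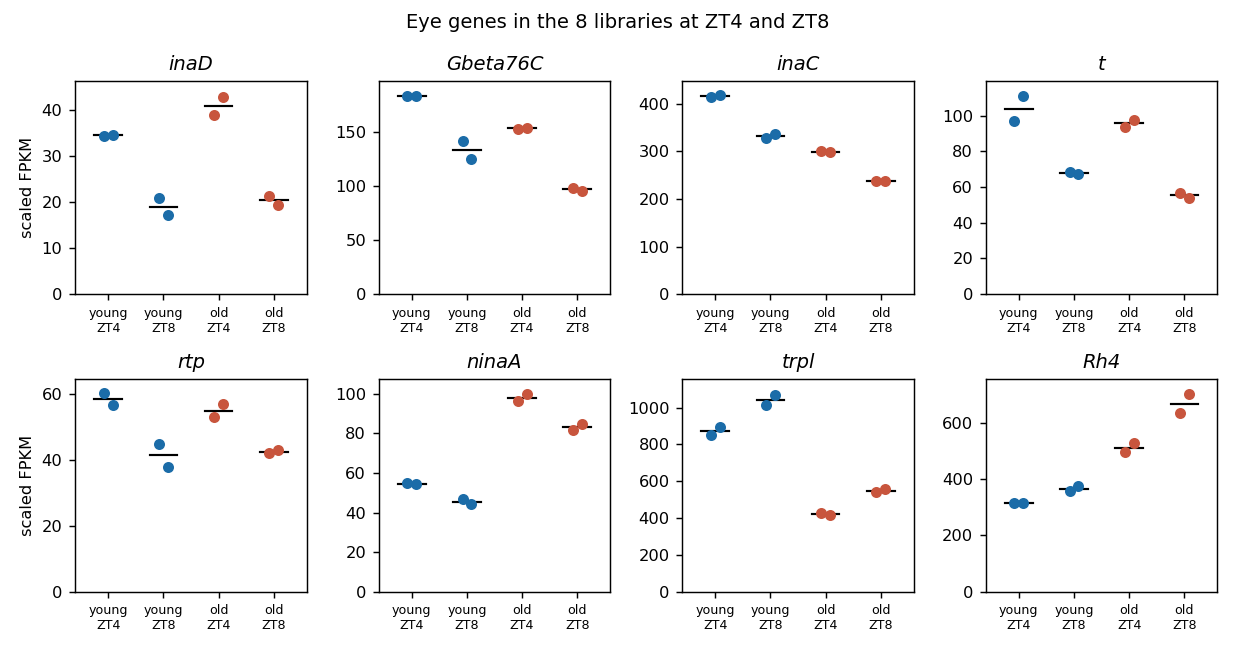
Scaled FPKM (vertical axis, from 0) of 8 genes of the eye in each library, by age and time of day. Points are the 2 libraries of a group and short lines their mean. The ZT8 points of inaD, Gbeta76C, inaC, t, rtp and ninaA lie below the ZT4 points of the same age, and those of trpl and Rh4 above.

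The fall with the smallest P value was that of CG44195, at 149.97 and 148 at ZT4 and 82.3 and 81.96 at ZT8 in young flies. Among old flies the level was 121 and 126 at ZT4 and 74.1 and 69.7 at ZT8 (log2 difference -0.81, SE 0.04, limma adjusted P = 0.000632). It overlaps Ank2, the gene of a cytoskeletal adaptor of neurons, on the same strand over 37246 bases, so how fragments were split between them is uncertain. Ank2 itself had 92.8 and 90.8 at ZT4 and 66.2 and 68.6 at ZT8 in young flies. Its values in old flies were 69.5 and 70.5 at ZT4 and 51.8 and 54.1 at ZT8 (log2 difference -0.42, SE 0.04, limma adjusted P = 0.00414). Both genes fell, Ank2 by less.

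Cpr72Ec, a cuticle protein gene, was at 167 and 165 at ZT4 and 94.4 and 82.6 at ZT8 in young flies. Old heads had 110.2 and 130.4 at ZT4 and 63.9 and 57.999 at ZT8 (log2 difference -0.94, SE 0.07, limma adjusted P = 0.0031), and 2 of 17 tested cuticle genes fell, with 14 of the 17 below 0 and a median of -0.15. Steps below 0 were found for 4769 of all 9513 tested genes, and 1.89% were called lower. Crg-1, a forkhead factor named for its circadian regulation, had 22.1 and 27.3 at ZT4 and 14.3 and 10.1 at ZT8 in young flies. At the older age it stood at 27.9 and 34.8 at ZT4 and 20.4 and 21.3 at ZT8 (log2 difference -0.77, SE 0.14, limma adjusted P = 0.0359). The values of ple, the tyrosine hydroxylase that starts dopamine synthesis, were 43.4 and 40.8 at ZT4 and 30.5 and 28.6 at ZT8 in young flies. The level in old flies was 38.6 and 37.4 at ZT4 and 30.5 and 30.5 at ZT8 (log2 difference -0.40, SE 0.05, limma adjusted P = 0.0227). It was the only called gene among 17 of sleep and monoamine signalling, where 3.47% of all tested genes were called.

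Further falls among the largest 15 were those of CG11891, which shares 3059 bases with CG11889 on the same strand, at -0.72 (limma adjusted P = 0.0286), CG6983 at -0.64 (limma adjusted P = 0.0278), Cyp4aa1, a cytochrome P450, at -0.58 (limma adjusted P = 0.0286), Lsm11, a subunit of the particle that processes histone transcripts, at -0.61 (limma adjusted P = 0.0278), CG42365 at -0.60 (limma adjusted P = 0.0278) and CG32407 at -0.57 (limma adjusted P = 0.0309). The antimicrobial peptide gene Def had 9.36 and 11.3 at ZT4 and 3.68 and 7.03 at ZT8 in young flies. Old flies had 11.5 and 9.52 at ZT4 and 4.89 and 5.78 at ZT8 (log2 difference -0.87, SE 0.16, limma adjusted P = 0.0391), and it was the only called member of 18 antimicrobial and Turandot genes. Among all tested genes, 3.47% were called. Def overlaps magu on the other strand over its whole length of 399 bases.

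Most genes for making ribosomes had a negative step, with a more negative median in young than old libraries. Of 22 ribosome biogenesis genes, 2 fell and none rose, and 19 had a negative step, with a median of -0.17 (-0.28 in young and -0.05 in old). A negative step was found for 4769 of all 9513 tested genes, and 1.89% were called lower. Nop60B, the pseudouridine synthase of the nucleolus, was at 9.53 and 8.58 at ZT4 and 5.52 and 4.71 at ZT8 in young flies. In old heads it was at 8.53 and 9.29 at ZT4 and 6.57 and 7.16 at ZT8 (log2 difference -0.53, SE 0.10, limma adjusted P = 0.0359). Ns1, a nucleolar GTPase, had 14.1 and 16.1 at ZT4 and 9.06 and 9.01 at ZT8 in young flies. The values at the older age were 16.7 and 17.2 at ZT4 and 14.2 and 13.2 at ZT8 (log2 difference -0.48, SE 0.09, limma adjusted P = 0.0359). In 8 of the 22 the step differed between the ages at an unadjusted P of at most 0.05, where 8.6% of all genes did, and none passed adjustment. Among these, mod, a nucleolar protein gene, had 73.2 and 71.5 at ZT4 and 54.6 and 55.4 at ZT8 in young flies. In old flies it had 51.7 and 52.1 at ZT4 and 57.8 and 59.4 at ZT8 (limma adjusted P = 0.0606). Nop56, of the box C/D particle, had 15.6 and 15.2 at ZT4 and 10.9 and 9.98 at ZT8 in young flies. The old libraries gave 12.04 and 11.5 at ZT4 and 13.7 and 14.1 at ZT8 (limma adjusted P = 0.0655).

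Other protein synthesis lists were mixed, where 1.58% of all tested genes were called higher and 1.89% lower. Among 72 mitochondrial ribosomal protein genes 6 fell and 1 rose, with a median of -0.06. Examples were mRpS11 at -0.35 (limma adjusted P = 0.0306) and mRpS25 at -0.31 (limma adjusted P = 0.0359) for the falls and mRpL39 at 0.30 (limma adjusted P = 0.0426) for the rise. None of 22 aminoacyl-tRNA synthetase genes was called, and 18 of them had a negative step, beside 4769 of all 9513 tested genes. Of 85 cytosolic ribosomal protein genes 6 rose and 1 fell, with a median of 0.02. RpL39, the gene of a very small subunit, had 4988 and 4024 at ZT4 and 5824 and 7046 at ZT8 in young flies. Among old flies the level was 2787 and 3061 at ZT4 and 5000.2 and 4709 at ZT8 (log2 difference 0.62, SE 0.10, limma adjusted P = 0.0304), and RpL24-like, whose product acts in ribosome assembly, fell at -0.29 (limma adjusted P = 0.0278).

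The step also varied with transcript length. The median step was 0.24 for the 219 genes with a longest transcript of at most 300 bases, 0.04 for the 504 between 300 and 600 bases and -0.02 for the 2927 between 1000 and 2000 bases. In the shortest class the median deviation from each gene's mean over the 8 libraries was -0.49 in both old ZT4 libraries, -0.11 and -0.10 at old ZT8, -0.10 and -0.16 at young ZT4, and 0.08 and 0.44 at young ZT8. After a curve of transcript length was removed from each library, 287 genes were called, 260 of them among the 330.

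CG15068 (BomS6), which encodes a short secreted Bomanin peptide of the immune response, was at 575 and 593 at ZT4 and 782 and 1728 at ZT8 in young flies. Its values in old flies were 344 and 387 at ZT4 and 787 and 774 at ZT8 (log2 difference 1.04, SE 0.21, limma adjusted P = 0.0468). The second-cycle library of young ZT8 was by far the highest. CG15065 (BomS5) had 152 and 204 at ZT4 and 253 and 422 at ZT8 in young flies. Old heads had 97.01 and 151 at ZT4 and 253 and 252 at ZT8 (log2 difference 0.97, SE 0.20, limma adjusted P = 0.0451). With the length curve removed the adjusted P of limma was 0.0789 for CG15068 and 0.0914 for CG15065, so neither stayed called. Both genes lie side by side on chromosome 2R and have transcripts of 198 and 218 bases.

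Transcripts of the mitochondrial genome had a median step of 0.36 over 21 tested, 0.36 in young and 0.43 in old, with 4 rises and no fall. The largest was mt:ND3, a subunit of complex I, at 2796 and 2316 at ZT4 and 3667 and 4932 at ZT8 in young flies. At the older age it stood at 1659.9 and 1596 at ZT4 and 3074 and 3422 at ZT8 (log2 difference 0.87, SE 0.12, limma adjusted P = 0.0246), which stayed called with the length curve removed (limma adjusted P = 0.0235). It was followed by mt:CoIII, a subunit of cytochrome oxidase, at 0.64 (limma adjusted P = 0.0336), mt:ND2 at 0.48 (limma adjusted P = 0.0286) and mt:ND4 at 0.36 (limma adjusted P = 0.0498). None of the 4 was called with the spread of all 24 libraries. In the main fit, 1.58% of all tested genes were called higher. CG40127, the RNASEK gene, had 123 and 103 at ZT4 and 151 and 213 at ZT8 in young flies. The level in old flies was 66.4 and 58.97 at ZT4 and 106 and 102 at ZT8 (log2 difference 0.70, SE 0.11, limma adjusted P = 0.0286), again lowest in both old ZT4 libraries. The noncoding CR42868 was at 8.57 and 9.13 at ZT4 and 12.99 and 17.4 at ZT8 in young flies. Old flies had 8.19 and 7.11 at ZT4 and 17.04 and 18.2 at ZT8 (log2 difference 0.91, SE 0.12, limma adjusted P = 0.0217). Another noncoding gene, CR45204, was listed at 0 in both old ZT4 libraries, with 5.88 and 4.47 at young ZT4, 10.4 and 14.2 at young ZT8 and 5.5 and 8.5 at old ZT8 (limma adjusted P = 0.0359). Its fitted rise of 2.04, the largest called, depends on these 0 values. The mean at old ZT0 was 10.99, and whether the 0 values are failed estimates was not tested. With the spread of all 24 libraries the limma adjusted P was 0.0513.

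Metabolic and protective genes gave a few rises of very unequal size. Over all tested genes, 1.58% were called higher and 1.89% lower. Of 13 glycolysis genes 2 rose, Pgi at 0.31 (limma adjusted P = 0.048) and ImpL3, lactate dehydrogenase, at 0.73 (limma adjusted P = 0.0498). Of 23 antioxidant and metal-response genes 3 rose and none fell. These were Cat, catalase, at 0.29 (limma adjusted P = 0.0407), cnc, the fly relative of the stress factor NRF2, at 0.23 (limma adjusted P = 0.0278) and MtnE, a metallothionein. MtnE was low, at 0.979 and 0.324 at ZT4 and 2.72 and 3.09 at ZT8 in young flies. In old heads it was at 0 and 0.959 at ZT4 and 3.03 and 2.97 at ZT8 (log2 difference 1.39, SE 0.23, limma adjusted P = 0.0286), listed at 0 in 1 old ZT4 library. InR, the insulin receptor, rose at 0.20 (limma adjusted P = 0.0449) as the only called gene of 18 in insulin and fasting signalling, mdy, which makes triglycerides, fell at -0.25 (limma adjusted P = 0.0407) as the only one of 14 in lipid synthesis, and Gp93, a chaperone of the endoplasmic reticulum, fell at -0.26 (limma adjusted P = 0.0309) as the only one of 16 in that stress list. Of 24 neuropeptide genes, sNPF rose at 0.22 (limma adjusted P = 0.0407) and Crz, corazonin, fell at -0.33 (limma adjusted P = 0.0407). With the spread of all 24 libraries, 1 glycolysis and 1 antioxidant gene were called. None of the insulin, lipid, endoplasmic reticulum and neuropeptide lists was.

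None of 22 heat shock and chaperone genes was called by limma. For a difference of the step between ages, 5 of them had an unadjusted P of at most 0.05, where 8.6% of all genes did. The study called genes that gain a rhythm with age late-life cyclers, and the 5 of them that it followed up were chosen on these libraries, so their direction here is not independent evidence. Of these, Hsp22 and CG7130 are also among the heat shock and chaperone genes with that unadjusted P. All 5 late-life cyclers had positive steps, with a median of 0.30 in young and 0.96 in old flies, and 1 was called. ImpL3 was at 2.66 and 2.37 at ZT4 and 2.99 and 4.16 at ZT8 in young flies. The values at the older age were 13.8 and 12.6 at ZT4 and 29.6 and 29.2 at ZT8 (log2 difference 0.73, SE 0.16, limma adjusted P = 0.0498). Hsp22, a small heat shock protein gene, had 11.4 and 8.76 at ZT4 and 11.9 and 14.8 at ZT8 in young flies. In old flies it had 106 and 103 at ZT4 and 296 and 279 at ZT8 (log2 difference 0.91, SE 0.21, limma adjusted P = 0.0626). CG15784 had 78.6 and 100.1 at ZT4 and 105 and 115 at ZT8 in young flies. The old libraries gave 401 and 389 at ZT4 and 822 and 717 at ZT8 (limma adjusted P = 0.059). The levels of all 3 genes were higher in old than in young flies at both times. The fibroblast growth factor gene bnl was at 3.51 and 3.69 at ZT4 and 3.79 and 4.41 at ZT8 in young flies. Among old flies the level was 7.93 and 7.57 at ZT4 and 12.01 and 11.7 at ZT8. CG7130 was at 4.28 and 3.08 at ZT4 and 3.14 and 3.51 at ZT8 in young flies. Its values in old flies were 12.8 and 13.4 at ZT4 and 16.5 and 21.3 at ZT8. In all 5 the step differed between ages at an unadjusted P of at most 0.05 and in none after adjustment (limma adjusted P between 0.201 and 0.543).

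The size of the step was compared between ages by the interaction term. It passed for 15 genes (0.158%), with a higher step in old flies for 9 and a lower one for 6, that is 0.0946% and 0.0631% of all genes, and 818 genes (8.6%) had an unadjusted P of at most 0.05. Without the first-cycle library of young ZT4 it passed for 7 genes, without that of young ZT8 for 25, and without that of old ZT4 for 26. With the spread of all 24 libraries, the interaction term passed for 10 genes, 9 of them among the 15. The calls lost were those of CG13305, mus312, mt:lrRNA, snoRNA:Me28S-U3344b, scaRNA:MeU2-G25 and snoRNA:Psi28S-3305a. Within young flies alone 92 genes were called (0.967%), 47 higher (0.494%) and 45 lower (0.473%). Within old flies alone 26 were called (0.273%), 15 higher (0.158%) and 11 lower (0.116%). Leaving out 1 library gave 29 to 75 calls in young flies, lowest without the second-cycle library of young ZT4, and 9 to 23 in old flies, lowest without the second-cycle library of old ZT4. These counts do not show that the step was smaller in old flies, since the difference between ages was tested gene by gene only. Over the 330 genes the median rise was 0.37 in young and 0.36 in old and the median fall -0.35 and -0.33, with the step larger in young for 75 of the 150 rises and for 103 of the 180 falls. The fit with age as a block counts a difference of the step between ages as spread, which favours genes with like steps. These medians therefore cannot show that the step had the same size at each age.

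Since the ages share no library, the direction of the calls of 1 age could be looked up in the other. Both ages share 1 estimate of the spread, so libraries of the other age also helped decide which genes were called. Of the 92 genes called in young, 69 (75%) moved the same way in old, and of the 26 called in old, 24 (92.3%) did so in young, against 63.7% of all tested genes. The median step of the 92 was 0.66 in young and 0.21 in old flies when oriented by the young sign. For the 26 it was 0.94 in old and 0.61 in young. In both cases the median was larger at the age that chose the genes. Called at both ages were 14 genes, 13 in the same direction: tim, per, vri, cwo, Usp8, gol and Dyrk2 upward and inaD, Gbeta76C, t, CG44195, Cpr72Ec and CG13305 downward, while mus312 went up in young and down in old.

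**Figure D3:**
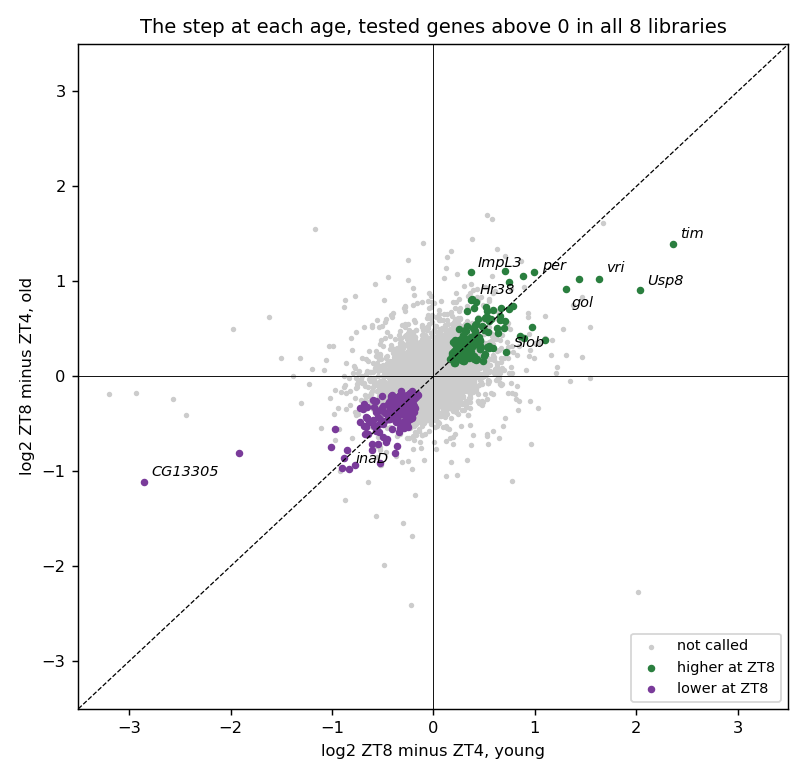
Step from ZT4 to ZT8 on the log2 scale in young (horizontal axis) and old flies (vertical axis) for the 9310 tested genes above 0 in all 8 libraries. Green points were called higher and purple points lower at ZT8 with age as a block, grey points were not called, and the dashed line marks equal steps. The points of tim (2.36 in young, 1.40 in old) and Usp8 (2.04 and 0.91) lie below that line, and that of ImpL3 (0.37 and 1.10) above it.

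Among the genes whose step differed, tim and Usp8 rose at both ages but less in old flies. For tim the step was 2.36 at the young and 1.40 at the old age (old minus young -0.97, SE 0.09, limma adjusted P = 0.0156). For Usp8 it was 2.04 and 0.91 (old minus young -1.13, SE 0.09, limma adjusted P = 0.011). Both genes stood higher at old than at young ZT4, whereas at ZT8 tim was higher and Usp8 lower in old flies. With the spread of all 24 libraries, the limma adjusted P of the difference was 7.8e-05 for tim and 0.025 for Usp8. The tim difference missed the threshold without any 1 of 5 libraries, with adjusted P values from 0.028 to 0.083 over the 8 fits. For rgr, the levels were 6.08 and 6.34 at ZT4 and 11.3 and 11.2 at ZT8 in young flies. Old heads had 8.03 and 8.34 at ZT4 and 7.79 and 7.77 at ZT8 (old minus young -0.83, SE 0.09, limma adjusted P = 0.0321). Sidpn, a transcription factor gene of the Hairy and Enhancer-of-split type, had 3.47 and 3.8 at ZT4 and 10.04 and 9.32 at ZT8 in young flies. At the older age it stood at 5.63 and 5.79 at ZT4 and 6.33 and 5.45 at ZT8 (old minus young -1.17, SE 0.13, limma adjusted P = 0.037). CG6472 was at 8.31 and 8.79 at ZT4 and 5.3 and 5.21 at ZT8 in young flies. The level in old flies was 2.89 and 2.44 at ZT4 and 4.22 and 4.3 at ZT8 (old minus young 1.13, SE 0.13, limma adjusted P = 0.037). The young values of rgr and Sidpn were higher at ZT8 with old values close to each other, and those of CG6472 were lower at ZT8 in young and higher in old flies. The rgr call was lost in 12 of 18 alternatives.

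Of the 15 genes, 5 were neighbours on chromosome 3L, between S-Lap1 (start 8617235, BDGP6) and CG13305 (end 8646822). They were S-Lap1 and S-Lap2, leucyl aminopeptidase genes known from sperm, Cdc6, a replication licensing factor, the cuticle gene Cpr66D and CG13305, and they were described together after their values were seen. S-Lap1 was at 13.7 and 14.4 at ZT4 and 0.496 and 0.806 at ZT8 in young flies. Old flies had 0.525 and 0.838 at ZT4 and 0.63 and 0.329 at ZT8. S-Lap2 was at 10.3 and 12.01 at ZT4 and 0.533 and 0.654 at ZT8 in young flies. In old heads it was at 0.301 and 0.267 at ZT4 and 0.128 and 0.146 at ZT8. Both were high only in the young ZT4 libraries. Cdc6 was at 19.003 and 20.1 at ZT4 and 2.14 and 2.83 at ZT8 in young flies. The values at the older age were 1.04 and 0.846 at ZT4 and 0.795 and 0.502 at ZT8. Cpr66D had 11.3 and 10.4 at ZT4 and 1.24 and 1.14 at ZT8 in young flies. In old flies it had 1.26 and 0.815 at ZT4 and 0.58 and 0.481 at ZT8. CG13305 had 25.6 and 27.8 at ZT4 and 2.87 and 2.8 at ZT8 in young flies. The old libraries gave 4.21 and 3.14 at ZT4 and 1.2 and 1.09 at ZT8 (log2 difference -1.98, SE 0.32, limma adjusted P = 0.0286). CG13305 was the only one of the 5 that was called with age as a block.

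GAPsec and CG6282 in the same stretch were also highest at young ZT4. GAPsec, a GTPase-activating protein gene, had 28.1 and 26.8 at young ZT4, 9.18 and 13.5 at young ZT8 and at most 5.52 at old ZT4 and ZT8, and CG6282, whose end lies just before S-Lap1, had 43.3 and 42.2, 24.6 and 24.9, 19.2 and 19.7 and 17.2 and 18.5 in the order young ZT4, young ZT8, old ZT4 and old ZT8. Their interaction terms did not pass (limma adjusted P = 0.30 and 0.067). Zasp66, a muscle gene that spans Cdc6 on the other strand, was at 226 and 245 at young ZT4 and 196 and 243 at young ZT8 (limma adjusted P of the interaction = 0.69). Before the stretch, CG5989 and RpL14 had adjusted interaction P values of 0.96 and 0.77 by limma. Just after it, Pex7, a peroxisomal import gene, fell at -0.60 (limma adjusted P = 0.0383), with no call of a difference between ages (limma adjusted P = 0.793). Pex7 was low, at 0.498 to 2.37 scaled FPKM in the 8 libraries. It spans Arr2 on the other strand, which was at 3283 to 4153, so fragments of Arr2 could weigh on it. At the 4 other times of day the mean of S-Lap1 was 0.111 to 0.355 and that of Cdc6 0.379 to 0.792 over both ages. The highest values were those of the young ZT4 libraries. At young ZT8, S-Lap1, S-Lap2, Cdc6 and GAPsec also stood above their young means at those 4 times, Cdc6 at 2.14 and 2.83 against at most 0.792. Cpr66D, CG13305 and CG6282 did not. What sets the young ZT4 libraries apart at these genes was not tested.

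**Figure D4:**
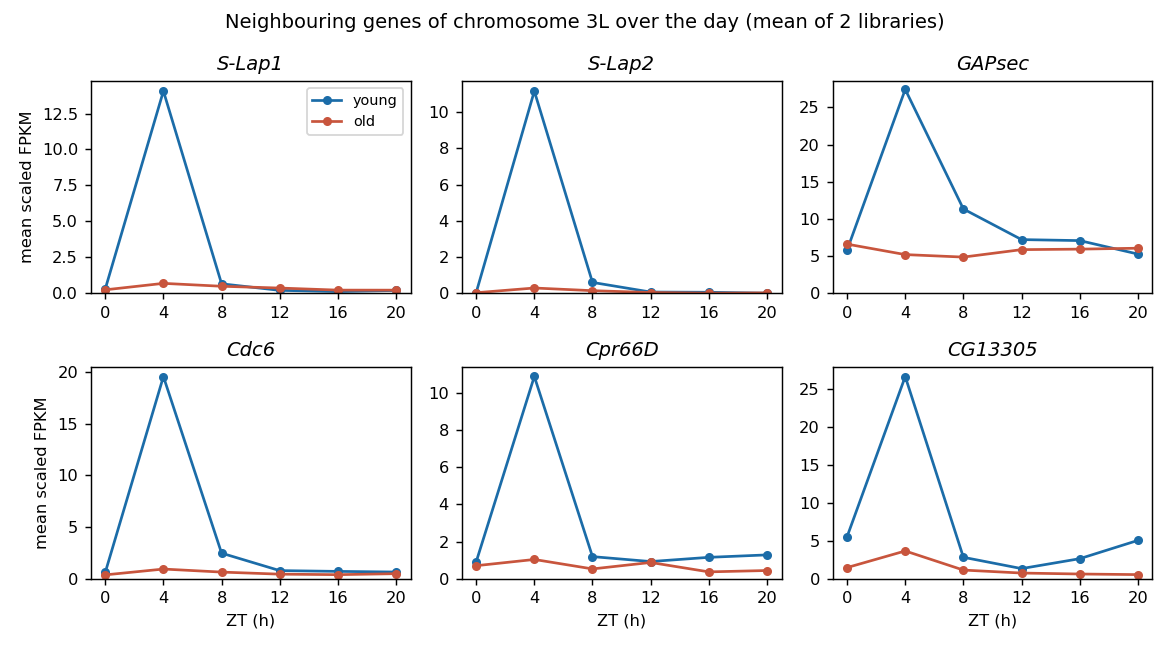
Mean scaled FPKM of 2 libraries (vertical axis, from 0) over the 6 times of day (horizontal axis, ZT in h) for 6 neighbouring genes of chromosome 3L, in young (blue) and old (red) flies. Each gene has its highest mean at young ZT4, for example 19.6 for Cdc6, which stood at 2.48 at young ZT8 and at most 0.942 in any old group.

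The remaining calls of the interaction were genes whose values switched between 0 or near 0 and a higher level. The mitochondrial ribosomal RNA mt:lrRNA was listed at 0 in both young ZT8 libraries, at 41725 and 36264 at young ZT4, 11343 and 11088 at old ZT4 and 15825 and 19070.5 at old ZT8. At young ZT12, ZT16 and ZT20 it was listed at 0 in 1 of the 2 libraries and between 43883 and 45501 in the other, so a 0 here can be a failed estimate. The DNA repair scaffold gene mus312 had 0.00445 and 0.0734 at ZT4 and 3.25 and 3.16 at ZT8 in young flies. Among old flies the level was 4.01 and 4.23 at ZT4 and 0.0617 and 0.0623 at ZT8 (old minus young -4.29, SE 0.19, limma adjusted P = 0.000521). It lies wholly within CG42307 on the same strand, and at young ZT16 its libraries read 4.13 and 0.0012. Of 3 small nucleolar or Cajal body RNAs, and within the 8 libraries, snoRNA:Me28S-U3344b and scaRNA:MeU2-G25 were above 0 only at young ZT4, at 32.5 and 31.9 and at 9.03 and 8.86. In the same libraries snoRNA:Psi28S-3305a was above 0 only at young ZT8, at 4.85 and 4.46. Each lies inside a longer gene on the same strand.

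The called genes were also followed over the whole day. Of all tested genes, 13.2% were highest at ZT8 and 22.4% at ZT12 in young flies, and 11.2% and 14.4% in old flies. In young flies 53 of the 150 genes that rose were highest at ZT8 and 57 at ZT12, and in old flies 23 and 75. Of the 180 that fell, 74 were lowest at ZT8 and 51 at ZT12 in young flies, and 24 and 95 in old flies. Of all tested genes, 17.7% were lowest at ZT8 and 14.3% at ZT12 in young flies, and 9.48% and 14.96% in old flies. The median level of the risers relative to ZT4 was 0.37 at ZT8 and 0.36 at ZT12 in young, and 0.36 and 0.48 in old flies. The fallers stood at -0.35 at both times in young, and at -0.33 and -0.51 in old flies. ZT4 and ZT8 were used to choose these genes, and the other 4 times were not. Whether the course differed between the ages was not tested.

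**Figure D5:**
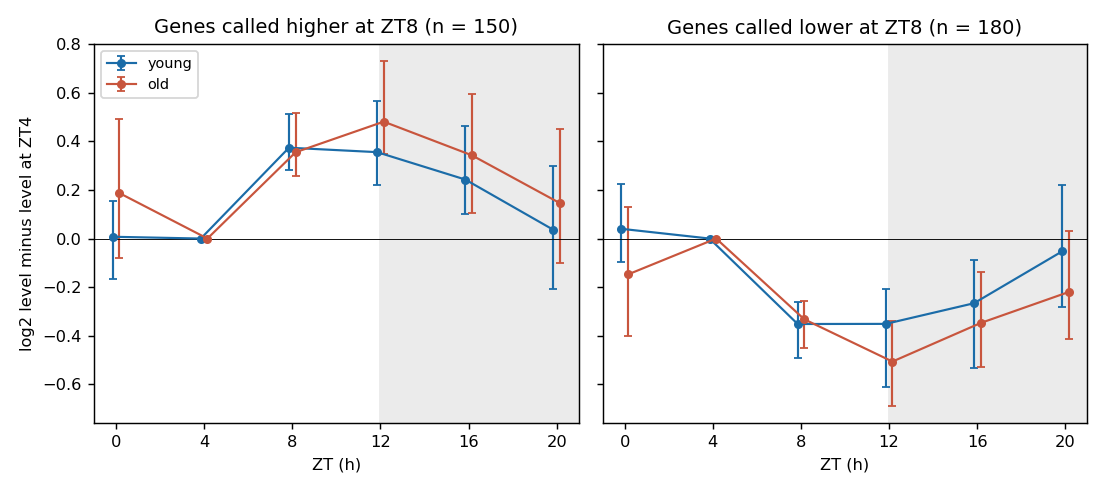
Level relative to ZT4 on the log2 scale (vertical axis) over the day (horizontal axis, ZT in h, dark phase grey) for the 150 genes called higher and the 180 called lower at ZT8, in young (blue) and old (red) flies. Points are medians over genes and bars the middle 50% of genes. In old flies the medians at ZT12, 0.48 and -0.51, lie beyond those at ZT8, 0.36 and -0.33.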

How the data were processed

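RNA-seq libraries from heads of young and old females at 6 times of day, 2 per age and time, were sampled. Reads had been trimmed (skewer) and mapped to the dm6 genome (BDGP release 6) by TopHat before the authors computed FPKM with Cuffdiff and the FlyBase annotation. They deposited these FPKM values in 1 table per age, with 17637 genes. How Cuffdiff scaled the libraries against each other is not given in the sources used here. Whether different times of day shared a sequencing lane is not stated either, so lane and time cannot be told apart. Libraries were stranded, and the strand setting of the quantification is not stated. The tables also hold the period, phase and P values of the authors' own rhythm test, which were not used. Columns are named by hour and were mapped to groups only, with the first and second daily cycle as the 2 replicates.

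A total of 238 pre-microRNA hairpins were left out. Libraries were scaled by the median ratio over 9159 genes, and the 9513 genes with a mean of at least 1 scaled FPKM over the 8 libraries were tested. limma 3.58.1 (R 4.3.3, eBayes with trend) was run on log2(scaled FPKM + 1), a pseudocount of 1, with age and time as terms (5 residual degrees of freedom), or with 4 group means for the step at each age and the interaction (4 residual degrees of freedom). P values were adjusted by Benjamini-Hochberg over all genes tested, with a threshold of 0.05. Fits were tested on simulated data. Positions and transcript lengths came from Ensembl release 115 on BDGP6, where 17366 genes matched. Values were taken as whole numbers of fragments within 0.1, up to 4 fragments, and 94.1 to 96.1% of them were whole. This gives the relative depth of the libraries, and no counting interval was computed. Python 3.11.15, numpy 2.4.6, pandas 2.3.3 and matplotlib 3.10.9 were used. Alternatives were other scalings, pseudocounts, filters, thresholds, all 24 libraries, a replicate block and leaving out each library, and, added after seeing the data, removal of a curve of transcript length and of genes listed at 0.

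Named genes are, of the called genes with a mean of at least 5 scaled FPKM and both ZT8 libraries on the same side of both ZT4 libraries at each age, the 15 largest rises and the 15 largest falls, then the 5 smallest interaction P values in each direction, and members of the gene lists. CG16978, Ank2, Cpn, Sidpn, CG6472, Cdc6, GAPsec, CG6282, Zasp66, CG5989, RpL14 and Pex7 were named after their values were seen. The comparison and the gene lists were chosen with earlier results of these data known.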

Additional observations from a re-analysis of the deposited data

Results flagged for a closer look

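The step from ZT4 to ZT8 differed between the ages, by the interaction term of limma after Benjamini-Hochberg adjustment over all genes, for 15 genes, and the values below are the old step minus the young step on the log2 scale. Neighbours on chromosome 3L had 3.01 (S-Lap1), 2.75 (S-Lap2), 2.33 (Cdc6), 2.03 (Cpr66D) and 1.74 (CG13305). Steps that were lower in old flies gave -0.97 (tim), -1.13 (Usp8), -0.83 (rgr) and -1.17 (Sidpn). For CG6472, with a negative step in young and a positive one in old flies, the difference was 1.13. It was -4.29 for mus312, which lies within another gene on the same strand. Genes listed at 0 in at least 2 of the 8 libraries had fitted differences of 15.88 (mt:lrRNA), 5.05 (snoRNA:Me28S-U3344b), 3.31 (scaRNA:MeU2-G25) and -2.50 (snoRNA:Psi28S-3305a), which depend on the pseudocount and are no measure of size.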

How the results depend on the processing

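The main count of 330 genes was 329 with upper quartile scaling (126 higher and 203 lower), 332 with scaling within the 8 libraries, 327 with a pseudocount of 0.1 and 424 with a mean of at least 5. It was 694 on deposited values, 122 without a filter on low values, 69 with all 24 libraries, 14 at an adjusted P of 0.01, 50 with at least a 1.5-fold change, and 13 to 477 when 1 library was left out. The 15 differences between ages became 6 with a pseudocount of 0.1, 4 with a mean of at least 5, and 7 to 26 when 1 library was left out, lowest without the first-cycle library of young ZT4 and highest without that of old ZT4. The 92 calls in young became 55 without a filter, 39 with all 24 libraries and 29 to 75 when 1 library was left out. The 26 calls in old became 47 on deposited values, 12 without a filter and 9 to 23 when 1 library was left out. Fits without 1 library that leave an arm with a single library take its spread from the other groups. The daily cycle of the column as a replicate block gave 47 calls in place of 330, 7 in place of 15, 56 in place of 92 and 7 in place of 26. Deviations of equally numbered libraries correlated at -0.08 to 0.11, with 0.11 between the times in young and 0.10 in old flies. The paper plots each daily cycle as a distinct biological replicate. Whether equally numbered libraries form pairs cannot be settled from these correlations. The 498 genes whose groups did not overlap became 440 on deposited values. Of the 75 values for named genes, none changed sign in the fits that kept all 8 libraries, and 44 lost their call with all 24 libraries and 46 with the replicate block. The cause of the differences in count was not tested. A transcript of 2000 bases at 1 FPKM rests on 34.6 to 42.6 fragments, which limits low genes such as MtnE.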

Other observations

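Some markers of single cell types were called, where 3.47% of all tested genes were. Of 7 glial markers, 1 rose and 1 fell. The rise was that of alrm, an astrocyte gene, from 56.2 and 57.3 to 66.7 and 74.7 scaled FPKM in young and from 40.4 and 35.5 to 48.3 and 49.1 in old flies. The fall was that of nrv2, a sodium pump subunit, from 299 and 324 to 259.9 and 234 in young and from 233 and 234 to 194 and 194 in old flies. Of 6 hemocyte markers, 1 rose, He, from 4.46 and 5.96 to 7.16 and 7.03 in young and from 4.98 and 5.09 to 7.79 and 7.40 in old flies. Of 6 photoreceptor markers only inaD was called, a fall, and 3 of the 6 had a step above 0. Of 4 tested cone and pigment cell markers only Pdh was called, also a fall, and the other 3 had a step above 0. None of the 6 neuron, 6 fat body and 6 muscle markers tested was called by limma. Whether cell composition differed between ZT4 and ZT8 was not tested.

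Of 25 tested odorant binding protein genes, 1 was called, where 3.47% of all tested genes were. Obp19d fell from 422 and 467 to 379 and 343 in young and from 385 and 436 to 305 and 318 in old flies.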
